A study of Arabidopsis thaliana with 24 samples.

Results

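The jasmonate genes described here are 10 Arabidopsis genes chosen by name for their place in the pathway, with no threshold on their values, out of 27416 genes in the tables. They are 3 genes of jasmonate synthesis, AOS (AT5G42650), LOX2 (AT3G45140) and OPR3 (AT2G06050), and 5 response genes, VSP1 (AT5G24780), VSP2 (AT5G24770), TAT3 (AT2G24850), CORI3 (AT4G23600) and PDF1.2 (AT5G44420). The others are 2 repressor genes of the pathway, JAZ1 (AT1G19180) and JAZ10 (AT5G13220). All 10 were present in every library and all 10 passed the filter on low counts, which left 19201 genes for testing. RNA was sequenced from leaves 6, 7 and 8 at an age of 2 weeks. The plants grew on soil at 22 °C under days of 16 h light with nights of 8 h, after sown seeds had been kept cold at 4 °C for 2 days. The 6 groups of 2 libraries were the haploid 1n, the diploid 2n, the lines DH6, DH9 and DH14, and sDH. DH stands for double-haploid in the study's title, and sDH is not spelled out. The deposited tables add Col to the name of 1n. The table that holds 2n pairs Col with 1n, and its columns named WT were taken as 2n. The labels give no other accession or strain. The labels give no wounding, hormone treatment or hour of harvest, no origin of a DH line beyond its number, and not whether a library holds 1 plant or several. Their tissue tag reads seedlings, while the extraction protocol names the leaves. The libraries of DH6 and of sDH are called II and III here, as their columns are, and the others 1 and 2.

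Jasmonates are lipid hormones made in leaves after wounding, insect feeding, touch and infection by fungi that kill their host tissue. Linolenic acid is oxygenated and cyclised in the plastid, and the product is reduced and shortened in the peroxisome and joined to isoleucine. The conjugate brings the receptor COI1 onto the JAZ repressors, which are then destroyed, and MYC2 and its relatives switch on their targets. Many of the genes of synthesis, of hormone breakdown and of the JAZ family are themselves targets, so that a burst of hormone raises their transcripts together. In Arabidopsis a MYC2 branch raises VSP1 and VSP2, and a branch shared with ethylene, run by ERF1 and ORA59, raises PDF1.2.

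The 12 libraries held 16484799 to 22146896 counts in genes, and levels are given in CPM, the counts scaled to a common library total. The 2 libraries of 1n differed more from each other than those of any other group, with a correlation of log2 CPM of 0.975 against 0.988 to 0.993. Of the tissue markers, 3 leaf markers summed to 49234 to 67154 CPM, the highest sums being in 1n, 6 root markers to at most 0.986 CPM and 4 shoot meristem markers to at most 0.379 CPM. Sums of 8 flower markers were 3.28 and 4.06 CPM in 1n and 0.603 to 1.84 CPM elsewhere, while sums of 3 guard cell and trichome markers were lowest in 1n, at 24.1 and 29.7 CPM, against 30.8 to 49.8 CPM. The part of these differences in the results was not tested. In bulk leaf RNA, fewer cells that express a gene and less RNA per cell cannot be told apart. Because the number of fragments depends on transcript length and no lengths were used, levels are compared between libraries and not between genes.

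Among the synthesis genes, LOX2, a plastid lipoxygenase that oxygenates linolenic acid, had 492 and 1747 CPM in 1n, 563 and 847 in 2n, and 2749.8 in DH6 II against 522 in DH6 III. It had 582 and 513 CPM in DH9, 656 and 1319.8 in DH14, and 354 and 274 in sDH. The high libraries were DH6 II, 1n 2 and DH14 2, each with a partner that had at most 656 CPM, and both sDH libraries lay below all the others. AOS, the allene oxide synthase that acts on the lipoxygenase product, had 123 and 431 CPM in 1n, 95.1 and 127 in 2n, 414 and 145 in DH6, 151 and 115 in DH9, 172 and 278 in DH14, and 81.9 and 88.6 in sDH. The same 3 libraries were the highest for AOS, and the sDH libraries were again below all the others. OPR3, the peroxisomal oxophytodienoate reductase, had 13.0 and 60.8 CPM in 1n, 26.7 and 51.1 in 2n, 64.5 and 22.3 in DH6, 65.7 and 25.3 in DH9, 28.4 and 68.5 in DH14, and 12.4 and 17.7 in sDH. For OPR3, 5 groups held a library above 50 CPM and a library below 30 CPM, so that these 5 overlapped, and neither sDH library exceeded 17.7 CPM.

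The vegetative storage protein genes VSP1 and VSP2, acid phosphatases that are standard reporters of jasmonate response in leaves, had the largest spread inside groups among the 10 genes. VSP2 had 1.82 and 107 CPM in 1n, 1.33 and 50.5 in 2n, 150.0 and 10.1 in DH6, 4.39 and 2.37 in DH9, 8.61 and 288 in DH14, and 3.31 and 0.878 in sDH. VSP1 had 2.85 and 42.8 CPM in 1n, 0.0986 and 11.3 in 2n, 167 and 4.79 in DH6, 0.878 and 0.0494 in DH9, 4.57 and 252 in DH14, and 0.420 and 0.293 in sDH. Inside 1n, 2n, DH6 and DH14, the higher library had 14.8 to 58.9 times the VSP2 level of the lower one, and VSP1 was high in the same 4 libraries. DH9 and sDH were low in both libraries. VSP1 in 2n 1 and DH9 2 rested on 1 or 2 counts. The genes are neighbours on 1 chromosome with no protein-coding gene between them in the TAIR10.1 annotation. They have similar sequences, and how reads matching both were counted is not given in the sources used here, so their separate values are uncertain.

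CORI3, a cystine lyase gene induced by coronatine, a bacterial mimic of the hormone, had 22.0 and 187 CPM in 1n, 22.8 and 39.8 in 2n, 154 and 13.1 in DH6, 39.1 and 31.3 in DH9, 29.1 and 146 in DH14, and 11.0 and 14.7 in sDH. Its high libraries were those of LOX2 and AOS. TAT3, a tyrosine aminotransferase gene induced by jasmonate, had 70.2 and 107 CPM in 1n, 68.3 and 83.8 in 2n, 31.5 and 1.94 in DH6, 21.1 and 10.9 in DH9, 28.6 and 67.3 in DH14, and 0.513 and 0.117 in sDH. TAT3 differed from the other genes in its order of groups: 1n and 2n were above all libraries of the DH lines and sDH, and the sDH libraries held 13 counts between them against 2858 in 1n.

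PDF1.2, an antifungal defensin that answers to jasmonate and ethylene together, had 9.09 and 21.2 CPM in 1n, 12.4 and 18.8 in 2n, 9.66 and 0.759 in DH6, 13.4 and 2.67 in DH9, 29.1 and 28.7 in DH14, and 0.280 and 0.117 in sDH. DH14 was above every other library with its 2 libraries nearly equal, and sDH was below every other library with 8 counts in all. PDF1.2 has near-identical copies, PDF1.2b and PDF1.2c, whose shared reads may have been assigned among them by an unknown rule. PDF1.2c was also highest in DH14, at 4.94 and 5.12 CPM. PDF1.2b was highest in DH6 II, at 3.28 CPM against 0 in DH6 III and 2.00 and 1.83 in DH14.

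JAZ1, a repressor that the receptor removes, had 11.3 and 85.8 CPM in 1n, 44.8 and 63.4 in 2n, 19.1 and 7.25 in DH6, 50.1 and 28.5 in DH9, 42.9 and 60.5 in DH14, and 11.9 and 17.2 in sDH. The DH6 and sDH libraries lay below all of those of 2n, DH9 and DH14, and 1n spanned both levels. JAZ10, a repressor whose transcript rises quickly after wounding, had 1.58 and 6.44 CPM in 1n, 3.79 and 5.51 in 2n, 11.4 and 3.75 in DH6, 9.49 and 5.23 in DH9, 3.47 and 11.6 in DH14, and 5.41 and 4.97 in sDH. JAZ10 was the exception for sDH, whose libraries lay between those of each of 1n, 2n, DH6 and DH14.

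**Figure D1:**
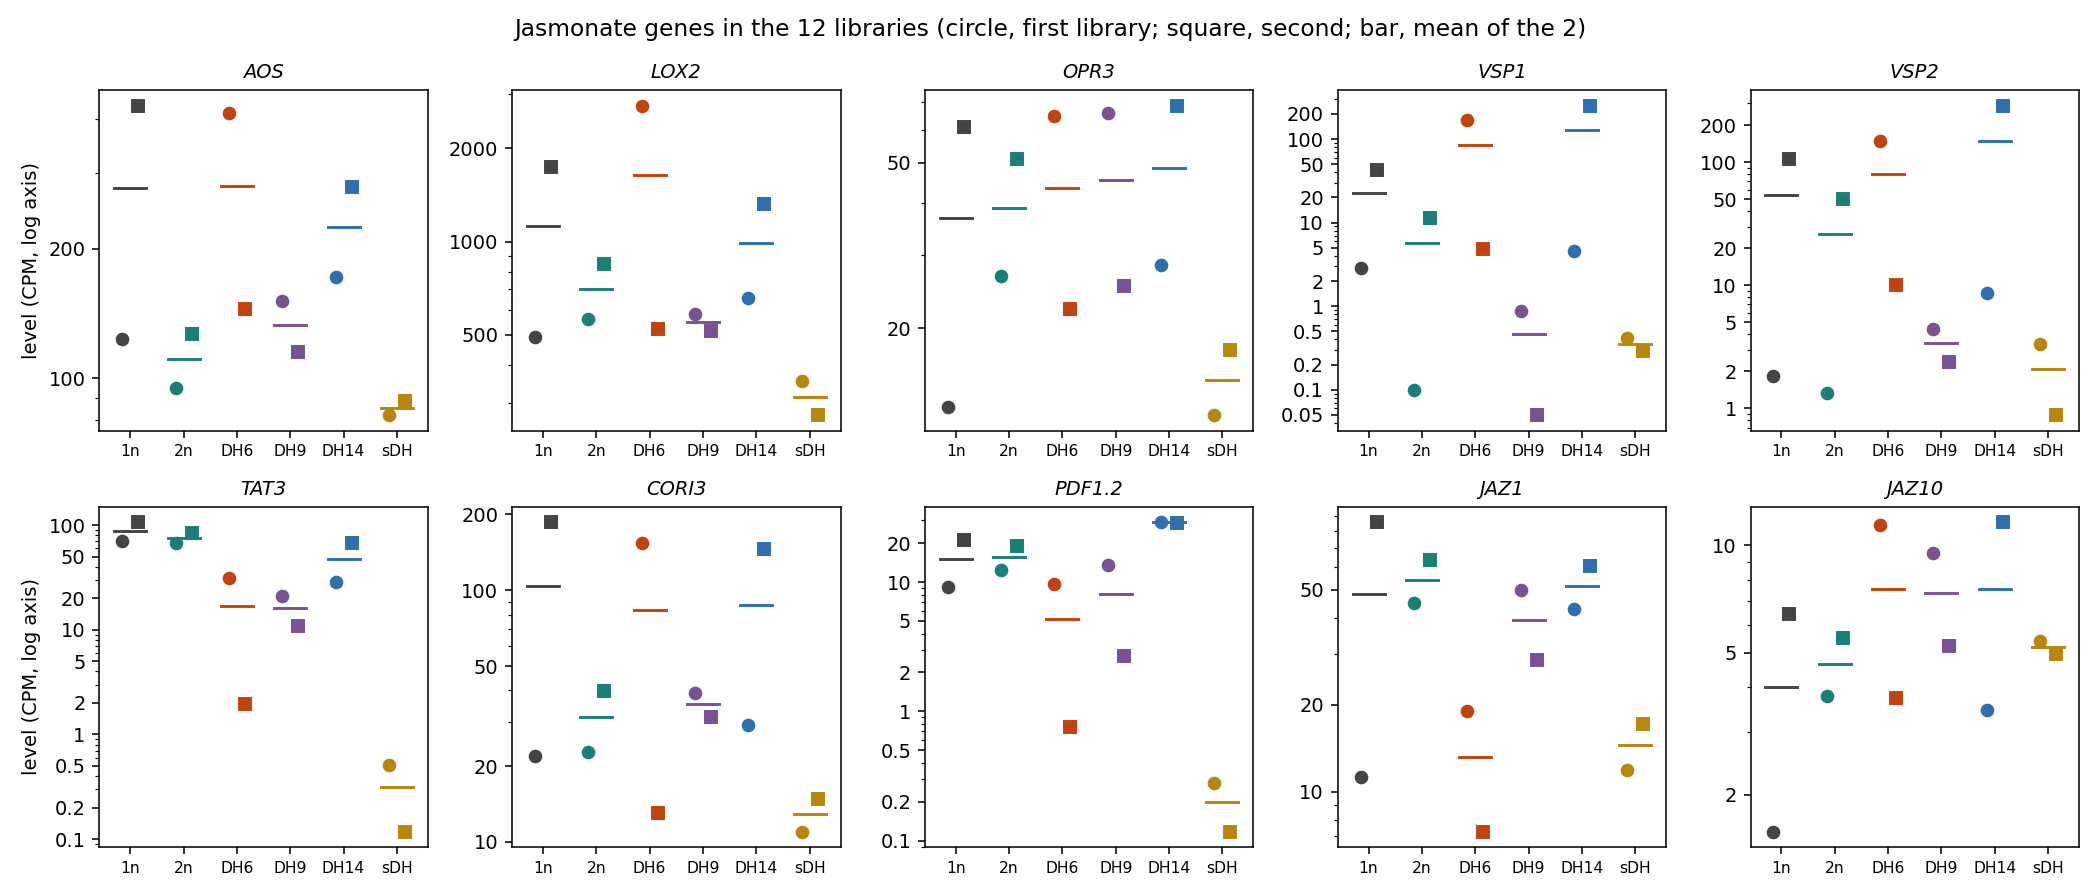
Level of each of the 10 jasmonate genes in the 12 libraries, in CPM on a log axis, by group; circles mark the first library of a group, squares the second, and bars the mean of both. LOX2 reaches 2749.8 CPM in DH6 II and 522 CPM in DH6 III, and the TAT3 and PDF1.2 points of sDH lie below 1 CPM.

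By group mean, sDH was lowest for 8 of the 10 genes, the exceptions being JAZ1, lowest in DH6 at 13.2 ± 8.34 CPM (SD, n = 2), and JAZ10, lowest in 1n at 4.01 ± 3.44 CPM (SD, n = 2). Neighbours in the order of means mostly overlapped. For OPR3, VSP1, VSP2 and JAZ10, each group overlapped the next in the order. For LOX2, sDH at 314 ± 56.6 CPM (SD, n = 2) was the only group to lie wholly below its neighbour, DH9 at 548 ± 48.9 CPM (SD, n = 2). For PDF1.2, both ends of the order stood clear of their neighbours, DH14 at 28.9 ± 0.266 CPM (SD, n = 2) and sDH at 0.198 ± 0.115 CPM (SD, n = 2).

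The differences inside groups ran the same way for nearly all of the genes. On the scale of log2(CPM + 0.5), all 10 were higher in 1n 2 than in 1n 1, 9 of them over 2-fold, with a median difference of 2.01. Of all tested genes 46.8% were higher in 1n 2, 3.74% were over 2-fold higher there, and the median size of a difference was 0.22. In DH6, all 10 were over 2-fold higher in library II, with a median difference of 2.70 in size. Of all tested genes 47.5% were higher in DH6 II, 1.01% over 2-fold, and the median size for all was 0.13. In DH14, 9 of the 10 were higher in library 2, against 49.3% of all tested genes, and 7 were over 2-fold higher, against 0.552%. PDF1.2 alone was higher in DH14 1, as were 50.6% of all tested genes.

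The other groups showed smaller differences. In 2n, all 10 were higher in library 2, against 47.1% of all tested genes, with a median of 0.59. Only VSP1 and VSP2 were over 2-fold higher there, against 0.38% of all tested genes. In DH9, all 10 were higher in library 1, against 48.6% of all tested genes, with a median of 0.80 in size. OPR3, VSP1 and PDF1.2 were over 2-fold higher, against 0.49% of all tested genes. The sDH libraries had no common direction: 6 genes were higher in II and 4 in III, against 50.1% and 49.6% of all tested genes. On the scale of log2(CPM + 0.5) only VSP2 differed over 2-fold, higher in II as were 0.411% of all tested genes. In plain CPM, TAT3 at 0.513 and 0.117 and PDF1.2 at 0.280 and 0.117 were also over 2-fold apart in sDH, on few counts. Each of these statements compares 2 libraries, with no test.

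**Figure D2:**
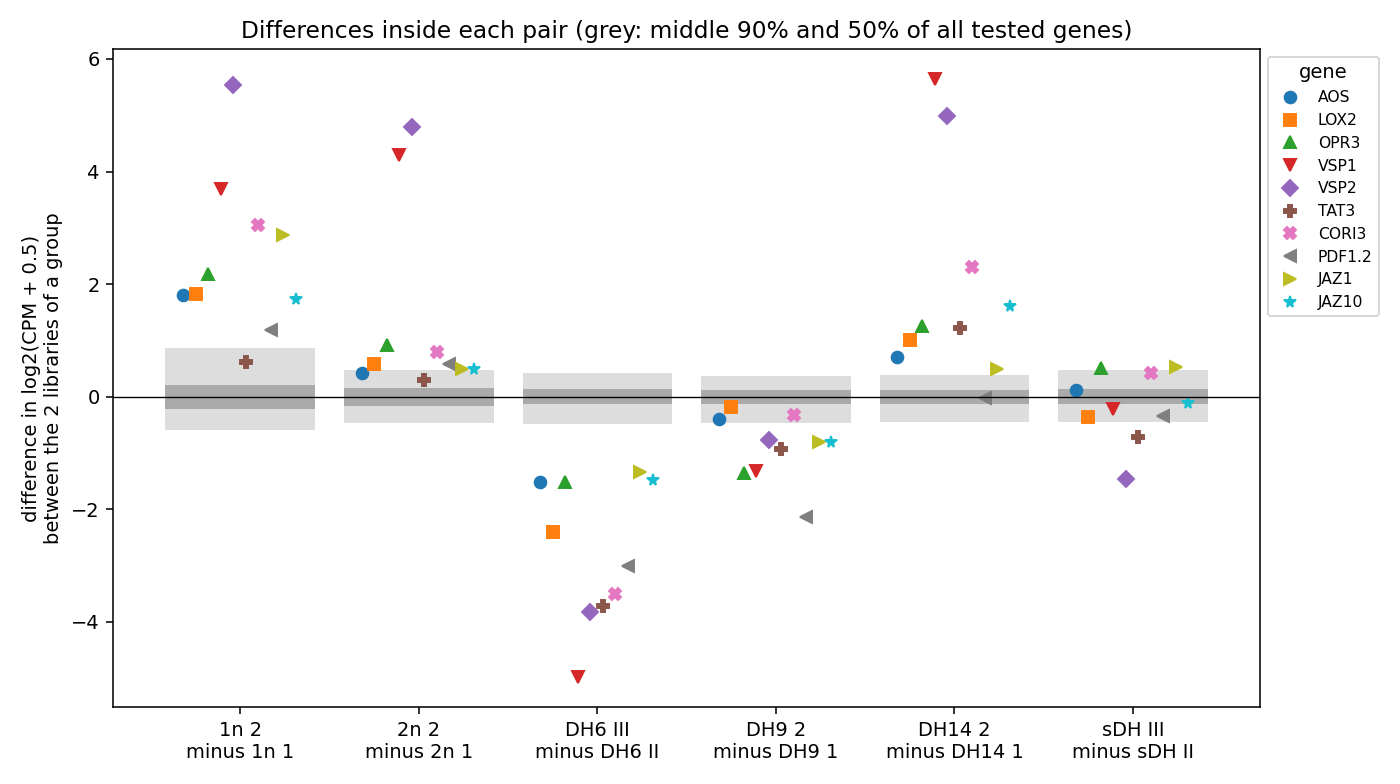
Difference in log2(CPM + 0.5) between the 2 libraries of each group for the 10 genes, with light grey bands over the middle 90% and dark grey bands over the middle 50% of all tested genes. All 10 points lie above 0 in 1n and 2n and below 0 in DH6 and DH9, and the sDH points fall on both sides of 0.

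Pooled over the 6 groups, the SD within groups on the same log2 scale was 0.73 for AOS to 2.83 for VSP2, against a median of 0.15 for all tested genes, and for each of the 10 at least 99.1% of all tested genes had a smaller one. Differences inside groups made up 75.5% of the whole sum of squares of JAZ10, 65.2% of that of CORI3, 63.8% for OPR3 and 59.7% for VSP2. For TAT3 they made up 11.6% and for PDF1.2 17.1%, near the median of 16.8% for all tested genes. Over the 12 libraries, the correlation of log2 levels between pairs of the 10 genes had a median of 0.667, from 0.0651 between TAT3 and JAZ10 to 0.957 between VSP1 and VSP2. These describe libraries that share groups and carry no p. TAT3 and PDF1.2 had r = 0.937, against r = 0.494 for TAT3 with VSP2, while the rank correlations were 0.678 and 0.392. TAT3 and PDF1.2 were both near the floor in sDH, with 13 and 8 counts over the group.

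Other genes of the pathway, taken from lists by role, also differed inside groups. Counts of genes over 2-fold apart in these lists are on the scale of log2(CPM + 0.5). On that scale 3.74% of all tested genes were over 2-fold higher in 1n 2 and 0.38% in 2n 2. The shares were 1.01% in DH6 II, 0.49% in DH9 1, 0.552% in DH14 2 and 0.411% in sDH II, with 99 of 19201 genes in sDH III. Of 8 tested genes that break down or store the hormone, all 8 were over 2-fold higher in 1n 2. The counts were 7 in DH6 II, 5 in DH9 1, 4 in DH14 2 and 1 in 2n 2, but none differed so in sDH. In plain CPM, CYP94B3 at 0.233 and 0.936 and JOX3 at 0.327 and 0.117 were over 2-fold apart in sDH, on few counts. The other tested genes of this list were not. Of 8 further genes listed as outputs of the MYC2 branch, all 8 were over 2-fold higher in 1n 2, 7 in DH6 II and 5 in DH14 2. In the other groups 3 were so in 2n 2, 2 in DH9 1 and 1 in sDH II. Named after their values were seen, JOX2, a jasmonate oxidase, had 4.36 and 40.2 CPM in 1n and 57.4 and 2.37 in DH6, and the jasmonate-inducible lectin gene JR1 had 181 and 14.5 CPM in DH6 and 18.7 and 93.4 in DH14. Of 16 synthesis genes beside AOS, LOX2 and OPR3, 6 were over 2-fold higher in 1n 2 and 6 in DH6 II. Another 4 were so in DH9 1, 4 in DH14 2, 2 in 2n 2 and 1 in sDH III, counting each group by itself. Of 13 genes of perception and repression, 7 were over 2-fold higher in 1n 2, 4 in DH6 II, 3 in DH9 1, 2 in 2n 2 and 1 in DH14 2. Of the 7 transcription factor and cofactor genes, MYC2 alone was over 2-fold higher in 1n 2, at 85.8 against 19.1 CPM, and in DH6 II, at 74.2 against 31.9 CPM. MYC4, a relative of MYC2, was over 2-fold higher in 1n 1, at 19.9 against 8.21 CPM, and no factor gene differed over 2-fold inside the other 4 groups.

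Groups were compared by edgeR's quasi-likelihood test in 1 fit over all 12 libraries, and a gene rose or fell when its adjusted p over the 19201 tested genes was under 0.05. The p-values measure only the spread between these libraries, which may be technical. Between 2n and 1n, where 40.9% of all tested genes changed, none of the 10 did. AOS was the only one with an unadjusted p under 0.05, at a log2 change of -1.32 (SE 0.54, adjusted p = 0.0727 by edgeR's quasi-likelihood test), and DESeq2 called none. AOS was called without 1n 1, DH6 II or DH6 III, each left out alone, and JAZ1 was called higher without 1n 2. The median log2 change was -0.45 for the 10 genes and 0.0015 for all tested genes. For VSP2 the estimate was -1.08 with a 95% interval of -4.94 to 2.79, so that a many-fold change in either direction was not detectable with these replicates.

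Against 1n, DH6 differed in 47.1% of all tested genes and in 1 of the 10. TAT3, among the 24.5% of all tested genes that fell, dropped by 2.40 on the log2 scale (SE 0.80, adjusted p = 0.0294 by edgeR's quasi-likelihood test). Without 1n 2, the change was -2.06 and the adjusted p 0.0714, and DESeq2 called none of the 10. JAZ1 missed the threshold, with a log2 change of -1.88 (SE 0.72, edgeR adjusted p = 0.0513), and 1n 1 at 11.3 CPM lay between the DH6 libraries at 19.1 and 7.25. The count was 2 without 1n 1, with JAZ1 added, and 3 without DH6 II, with JAZ1 and PDF1.2 added. LOX2, at 0.55 (SE 0.67), and VSP1, at 1.92 (SE 1.70), had higher estimates that did not pass. The median over the 10 was 0.13, against -0.012 for all tested genes.

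DH9 differed from 1n in 30.3% of all tested genes and in 1 of the 10, again TAT3, which fell as did 14.8% of all tested genes. It dropped by 2.47 on the log2 scale (SE 0.81, adjusted p = 0.0394 by edgeR's quasi-likelihood test). This call was lost without 1n 2 (adjusted p = 0.0867), without 2n 1 (0.0552), without 2n 2 (0.0545), without DH9 1 (0.0975) and without DH9 2 (0.228), and without sDH II (0.0547) or sDH III (0.0543), and DESeq2 called VSP1 in its place. Without 1n 1, AOS was called as well. VSP1 and VSP2 had estimates of -5.66 (SE 2.74) and -4.02 (SE 2.11), with edgeR adjusted p of 0.142 and 0.175. The median over the 10 was -1.05, against -0.0011 for all tested genes. For JAZ1 the direction rested on the 1n library used, as its log2 change of -0.31 became 1.80 without 1n 2 (edgeR adjusted p = 0.0231).

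DH14 differed from 1n in 24% of all tested genes and in none of the 10, by edgeR or DESeq2, and none had an unadjusted p under 0.05. Without 1n 2, JAZ1 was called higher. The estimates were -0.89 (SE 0.76) for TAT3, 0.93 (SE 0.75) for PDF1.2 and 2.49 (SE 1.72) for VSP1. The median over the 10 was 0.25, against -0.0068 for all tested genes.

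In sDH, 5 of the 10 genes fell against 1n and none rose, where 48.5% of all tested genes changed and 24.4% fell. TAT3 fell by 8.02 on the log2 scale (SE 1.28, adjusted p = 0.000435) and PDF1.2 by 6.15 (SE 1.34, adjusted p = 0.00318), both by edgeR's quasi-likelihood test. AOS fell by 1.70 (SE 0.55, edgeR adjusted p = 0.0243), LOX2 by 1.83 (SE 0.69, edgeR adjusted p = 0.0480) and CORI3 by 3.02 (SE 1.16, edgeR adjusted p = 0.0496). VSP1, VSP2, OPR3 and JAZ1 had lower estimates that did not pass, such as -1.74 (SE 0.72, edgeR adjusted p = 0.0656) for JAZ1, and JAZ10 stood at 0.38 (SE 0.71). DESeq2 called 6 of the 10 lower: it added VSP1 and VSP2 and lost LOX2 (DESeq2 adjusted p = 0.0536). With only sDH and 1n fitted, AOS, LOX2 and CORI3 were not called (edgeR adjusted p = 0.0624, 0.0562 and 0.0569), while VSP1 was. The median over the 10 was -2.43, against 0.0074 for all tested genes. TAT3 and PDF1.2 kept their calls in 16 of 16 alternative fits, with adjusted p of at most 0.00730 and 0.0299. The calls of AOS, LOX2 and CORI3 were lost without 1n 2, with log2 changes of -0.53, -0.64 and -0.78, and the count then was 2, whereas without 1n 1 it was 8. AOS also lost its call without sDH II (0.113) or sDH III (0.0907), which likewise left 2. LOX2 and CORI3 lost theirs without any 1 of the 2n, DH9 or sDH libraries, so that 3 genes were left without 2n 1, 2n 2, DH9 1 or DH9 2, and LOX2 without either DH14 library. The adjusted p-values in these fits were 0.0556 to 0.189 for LOX2 and 0.0643 to 0.195 for CORI3.

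**Figure D3:**
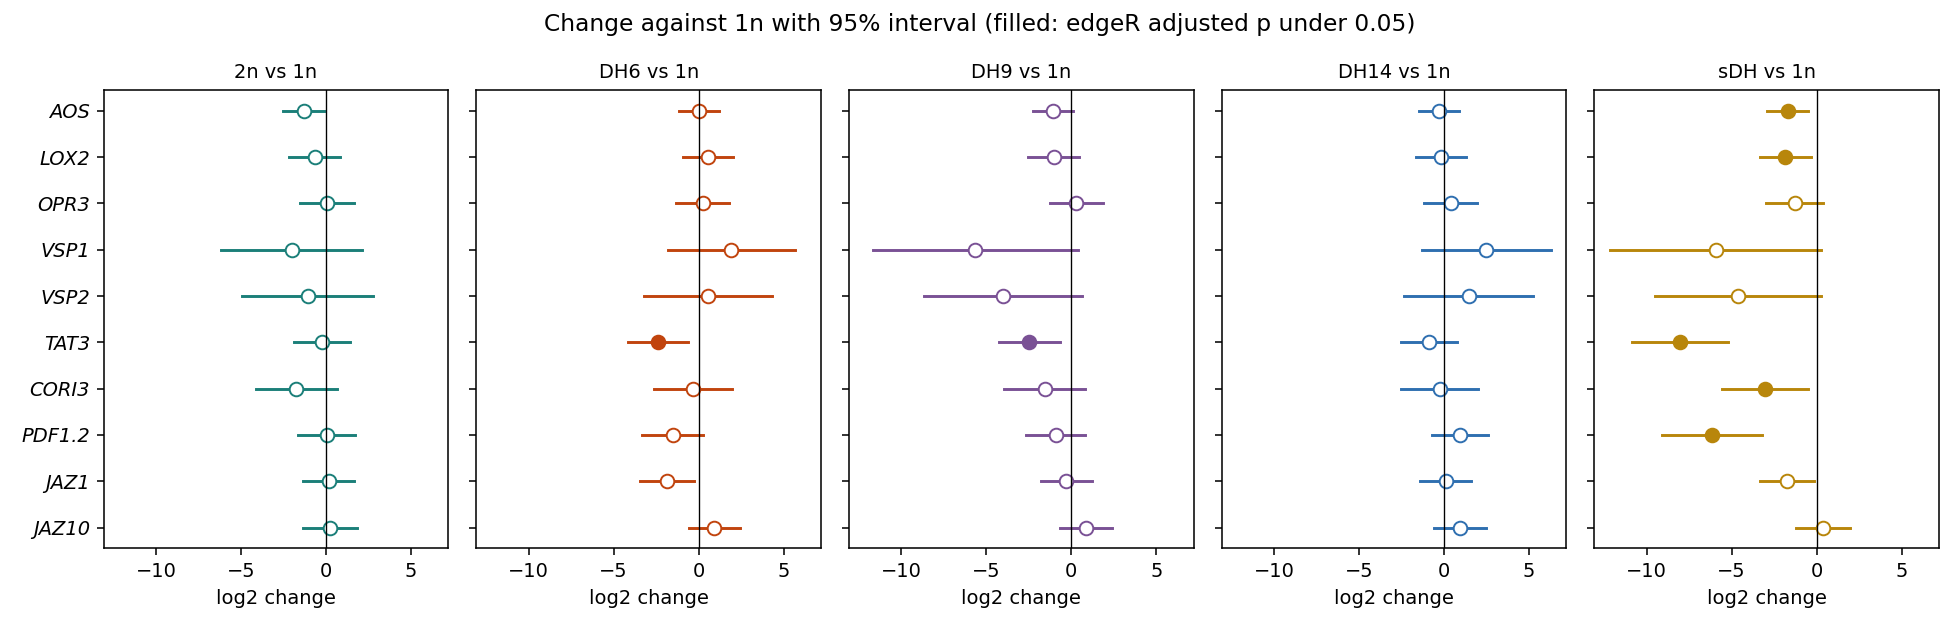
Log2 change of each of the 10 genes in the 5 other groups against 1n, from the fit over 12 libraries, with 95% intervals; filled points have an edgeR adjusted p under 0.05. TAT3 is filled in DH6, DH9 and sDH, and 5 genes are filled in sDH, while the intervals of VSP1 and VSP2 cross 0 in every panel.

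Against the diploid 2n, which leaves 1n out of the change though not out of the pooled spread, sDH again had TAT3 and PDF1.2 lower. These were 2 of the 10, where 30.4% of all tested genes changed and 15% fell. TAT3 fell by 7.80 on the log2 scale (SE 1.28, adjusted p = 0.00101) and PDF1.2 by 6.19 (SE 1.34, adjusted p = 0.00504) by edgeR's quasi-likelihood test, and both calls held in 16 of 16 alternative fits. LOX2, at -1.16 (SE 0.68), and AOS, at -0.38 (SE 0.54), did not pass. JAZ1 was at -1.90 (SE 0.72, edgeR adjusted p = 0.0675), and it was called, as the third gene, without 1n 1, without 1n 2 and without the low-count filter, and as 1 of 6 when only these groups were fitted. DESeq2 called TAT3 and PDF1.2 here as well. The median over the 10 was -1.64, against 0.043 for all tested genes.

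None of the 10 passed the edgeR test in DH6, DH9 or DH14 against 2n, where 25.1%, 17.2% and 26.3% of all tested genes did, and DESeq2 called none either. Unadjusted p-values were under 0.05 for 3 genes in DH6, which were AOS, TAT3 and JAZ1, for TAT3 in DH9 and for VSP1 in DH14. Of these, TAT3 had log2 changes of -2.18 (SE 0.80, edgeR adjusted p = 0.0680) in DH6 and -2.25 (SE 0.80, edgeR adjusted p = 0.0781) in DH9. JAZ1 had -2.04 (SE 0.72, edgeR adjusted p = 0.0599) in DH6. Without 1n 1, and likewise without 1n 2, TAT3 and JAZ1 were called lower and AOS higher in DH6, and TAT3 lower in DH9. In DH6, TAT3 and PDF1.2 were called without DH6 II, and AOS and LOX2 without DH6 III. Leaving out DH6 II or DH6 III also gave the TAT3 call in DH9.

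Among DH6, DH9 and DH14, an F-test over the 3 lines found 25.3% of all tested genes to differ and none of the 10 by edgeR or DESeq2. Unadjusted p-values were under 0.05 for PDF1.2 and VSP1, with edgeR adjusted p of 0.0644 and 0.0955. Their levels were 28.9 ± 0.266 CPM (SD, n = 2) in DH14, 8.05 ± 7.62 in DH9 and 5.21 ± 6.30 in DH6 for PDF1.2. PDF1.2 and JAZ1 passed without 1n 1 and likewise without 1n 2, PDF1.2 and TAT3 without DH6 II, and PDF1.2 alone without DH9 1.

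Of the 16 further synthesis genes that were tested, 4 fell in 2n against 1n, where 40.9% of all tested genes changed and 3812 of 19201 fell. In DH6 5 fell and 1 rose, where 47.1% of all tested genes changed and 24.5% fell. In DH9 2 fell and 2 rose, where 30.3% changed and 14.8% fell. In DH14 1 fell, where 24% changed and 2270 of 19201 fell. In sDH 8 fell and none rose, where 48.5% of all tested genes changed and 24.4% fell. Against 2n, sDH also had 8 lower and none higher, where 15% of all tested genes fell. In sDH the list's median log2 change was -0.69 against 1n and -0.41 against 2n. FAD7, a plastid desaturase that makes the linolenic acid used for the hormone, had 467 and 449 CPM in 1n, 379 and 377 in 2n and 302 and 329 in sDH. It fell by 0.54 in sDH against 1n (SE 0.07, edgeR adjusted p = 0.000111). FAD8, its relative, had 179 and 141 CPM in 1n and 103 and 91.6 in sDH, and it fell by 0.72 (SE 0.13, edgeR adjusted p = 0.000894). LOX6, a lipoxygenase of the early wound response, had 27.1 and 33.7 CPM in 1n, 33.2 and 35.2 in 2n and 20.5 and 17.8 in sDH, and it fell by 0.66 (SE 0.11, edgeR adjusted p = 0.000752). The libraries of sDH lay below those of 1n and 2n for all 3, and these calls against 1n held in 16 of 16 alternative fits. LOX6 also rose by 0.33 in DH9 against 1n (SE 0.11, edgeR adjusted p = 0.0466), a call lost without 1n 1 (0.239) and in 14 other alternatives.

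Of the 8 tested turnover genes, none changed in 2n or DH6 against 1n, where the smallest adjusted p-values by edgeR were 0.0558 and 0.0653, with 2 unadjusted p-values under 0.05 in each. In DH9 CYP94C1, a hormone oxidase, rose by 2.12 (SE 0.70, edgeR adjusted p = 0.0418), from 0.667 and 2.72 CPM in 1n to 10.9 and 3.80. That call was lost without 1n 1 (0.161), DH9 1 (0.325), 2n 1 (0.0560), 2n 2 (0.0565), sDH II (0.0562) or sDH III (0.0559). ST2A, a sulfotransferase of hydroxylated jasmonate, fell in DH14 and sDH, by 3.30 (SE 0.85, edgeR adjusted p = 0.0173) and 2.81 (SE 0.81, edgeR adjusted p = 0.0143). IAR3, an amidohydrolase of conjugated hormones, fell by 1.59 in sDH (SE 0.57, edgeR adjusted p = 0.0372). For ST2A 1n 2 had 4.29 CPM and no other library more than 1.39, and for IAR3 1n 2 had 48.8 CPM and the others at most 32.0. Without 1n 2, the edgeR adjusted p was 0.167 for ST2A in DH14, 0.236 for ST2A in sDH and 0.447 for IAR3. ST2A also lost its calls without DH14 1 (0.126) or DH14 2 (0.0711) and without sDH II (0.0898) or sDH III (0.0594), and IAR3 without sDH II (0.138), sDH III (0.123) or 2n 1 (0.0511).

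Of 13 tested genes of perception and repression, 4 fell in sDH against 1n. DH6 and 2n had 3 lower each, DH9 and DH14 1 each, and none rose. The share that fell among all tested genes was 24.4% in sDH, 24.5% in DH6 and 14.8% in DH9, so the list's counts in sDH and DH6 are near it. Of the 19201 tested genes, 3812 fell in 2n and 2270 in DH14. COI1, the receptor, was among them in all 5 comparisons, which share the 1n libraries. It had 32.9 and 28.5 CPM in 1n and 20.3 to 24.7 CPM in the other 10 libraries, with no overlap. It fell by 0.49 in DH6 (SE 0.12, edgeR adjusted p = 0.00778) and by 0.45 in 2n (SE 0.13, edgeR adjusted p = 0.0147), and against 2n it was called in none of the 4 other groups. With only the groups compared, COI1 was not called against 1n in 2n, DH9, DH14 or sDH (edgeR adjusted p = 0.0679, 0.0773, 0.0770 and 0.0625). Without 1n 1, COI1 stood at -0.34 in 2n (edgeR adjusted p = 0.0833), at -0.31 in DH9 (0.120), at -0.35 in DH14 (0.0992) and at -0.31 in sDH (0.100), while the call in DH6 was lost without DH6 III (0.0782). COI1 was also not called in 2n without 2n 1 (0.0974), in DH9 without DH9 1 (0.168) or DH9 2 (0.0502), in DH14 without DH14 1 (0.152) or DH14 2 (0.0579), or in sDH without sDH III (0.132). JAZ3, a repressor, had 19.9 and 62.8 CPM in 1n and 10.6 and 14.9 in 2n. It fell in 2n, DH6 and sDH by 1.70, 1.78 and 1.72 (SE 0.43 each). JAZ6, another repressor, had 47.8 and 115 CPM in 1n and 16.0 and 20.2 in 2n. It fell in 2n by 2.17 (SE 0.52) and in sDH by 1.59 (SE 0.51), and rose against 2n in DH14 by 2.04 (SE 0.52, edgeR adjusted p = 0.0146) and in DH9 by 1.69 (SE 0.51, edgeR adjusted p = 0.0450). The call in DH9 was lost without any 1 library of 2n, DH9, DH14 or sDH (0.0619 to 0.204). Without 1n 2, JAZ3 was not called in 2n (0.0923), DH6 (0.0537) or sDH (0.0746), nor JAZ6 in sDH (0.201). JAZ3 also lost its call in 2n without 2n 1 (0.0757) and in DH6 without DH6 III (0.0583). JAZ6 lost its call in 2n without 2n 1 (0.0571), in sDH without sDH II (0.122) or sDH III (0.0726), and in DH14 against 2n without 2n 1 (0.101), 2n 2 (0.0590) or DH14 2 (0.104). The corepressor gene TPL fell by 0.47 in DH6 against 1n (SE 0.11, edgeR adjusted p = 0.00458), from 114 and 98.7 CPM to 76.1 and 77.6, in 16 of 16 alternative fits.

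Of the 7 factor genes, MYC2, the main activator, was called in no comparison. Its libraries ran from 19.1 CPM in 1n 1 to 109 CPM in 2n 1, and its estimate in 2n against 1n was 1.02 (SE 0.57, edgeR adjusted p = 0.175). JAM1, a repressor that competes with MYC2, had 41.6 and 45.5 CPM in 2n and at most 28.3 CPM in the other 10 libraries. It rose by 0.88 in 2n against 1n (SE 0.18, edgeR adjusted p = 0.00296) in 18 of 18 alternative fits. Against 2n, JAM1 fell in all 4 other groups, by 0.95 to 1.19, and of these calls the one in DH9 was lost without DH9 2 (0.0637). MED25, a Mediator subunit that works with MYC2, fell in 2n, DH6 and sDH against 1n by 0.23, 0.24 and 0.31 (SE 0.08 each). These calls were lost in 17 of 18, 7 of 16 and 1 of 16 alternatives. MYC4 fell by 1.15 in 2n (SE 0.32, edgeR adjusted p = 0.0154), and without 1n 1, which had 19.9 CPM, the change was -0.37 (0.210). MYC4 was also not called without 2n 1 (0.0837) or 2n 2 (0.0596).

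Among the 8 further outputs of the MYC2 branch, 1 fell in 2n, 1 in DH9 and 2 in sDH against 1n, and none in DH6 or DH14. The counts in DH9 and sDH are near the 14.8% and 24.4% of all tested genes that fell there. In 2n 3812 of the 19201 tested genes fell. In DH6 and DH14 no unadjusted p by edgeR was under 0.05. ARGAH2, an arginase gene, had 134 and 344 CPM in 1n, 31.4 and 65.3 in 2n, 309 and 67.2 in DH6, 55.2 and 45.7 in DH9, 103 and 168 in DH14, and 50.3 and 39.2 in sDH. It fell by 2.31 in 2n, 2.24 in DH9 and 2.41 in sDH (SE 0.64 each). Without 1n 2, these were -1.47, -1.40 and -1.57, and the edgeR adjusted p-values were 0.0882, 0.123 and 0.0623. ARGAH2 also lost its calls without 2n 1 (0.110), without DH9 1 (0.0923) or DH9 2 (0.136) and without sDH III (0.0679). BSMT1, a methyltransferase gene of salicylic and benzoic acid, had 58 counts in 1n and 0 in sDH, at least 23.0-fold lower with a floor of 3 counts over the group. Of these counts all but 1 were in 1n 2, at 3.60 CPM against 0.0606 in 1n 1, and without 1n 2 the edgeR adjusted p was 0.546. The call was lost in 10 of 15 alternatives.

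Of the branch shared with ethylene 9 further genes were tested. Over 2-fold differences inside groups were fewer than for the MYC2 outputs in 5 of the 6 groups and as many in DH9, with 2 of 9 genes higher in 1n 2 and 4 of 9 in DH6 II. Against 1n, 1 rose and 1 fell in 2n, 4 fell in DH6, 1 rose and 2 fell in DH9, 2 rose in DH14 and 3 fell in sDH. Of all tested genes 40.9%, 47.1%, 30.3%, 24% and 48.5% changed in either direction in these comparisons. The list's counts over both directions are not above those shares in 2n, DH6, DH14 and sDH. By direction, 4 of 9 fell in DH6, 2 of 9 in DH9 and 3 of 9 in sDH. The count in DH6 is above the 24.5% of all tested genes that fell there. With 9 genes, those in DH9 and sDH are near the 14.8% and 24.4% that fell there. The 2 of 9 that rose in DH14 are likewise near the share of 2333 in 19201 tested genes that rose. The 1 that rose in DH9 is not above the 2970 of 19201. In 2n, the 1 that rose and the 1 that fell are not above the 4040 and 3812 of 19201. Against 2n, 4 fell in DH6, 2 in DH9 and 4 in sDH, and 1 rose in DH14. Of the 19201 tested genes, 2533 fell in DH6, 1645 in DH9 and 2877 in sDH against 2n, and 2437 rose in DH14. Among the 3 DH lines, 5 of the 9 differed by the F-test, against 25.3% of all tested genes. Whether the 2 branches differ in these counts was not tested.

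PR4, a chitin-binding defence protein, had 14.9 and 23.4 CPM in 1n, 20.8 and 27.2 in 2n, 2.92 and 1.94 in DH6, 8.67 and 4.54 in DH9, 16.1 and 12.5 in DH14, and 1.31 and 0.585 in sDH. It fell against 1n in DH6 by 2.97 (SE 0.36, edgeR adjusted p = 8.83e-05) and in sDH by 4.28 (SE 0.42, edgeR adjusted p = 1.89e-05). In DH9 it fell by 1.54 (SE 0.33, edgeR adjusted p = 0.00531), and without DH9 2 this was -1.14 (0.0613). Against 2n it fell in DH6, DH9 and sDH by 3.30, 1.87 and 4.61, in 16 of 16, 18 of 18 and 16 of 16 alternative fits. No library of DH6, DH9 or sDH reached the level of any library of 1n, 2n or DH14, and PR4 differed among the 3 lines (edgeR F-test, adjusted p = 0.00192).

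PDF1.3, a defensin gene related to PDF1.2, had 8.97 and 5.68 CPM in 1n, 3.15 and 4.60 in 2n, 2.61 and 0.711 in DH6, 2.36 and 0.642 in DH9, 4.88 and 5.02 in DH14, and 0.467 and 0.117 in sDH. It fell in sDH against 1n by 4.54 (SE 0.74, edgeR adjusted p = 0.000504) and against 2n by 3.62 (SE 0.77, edgeR adjusted p = 0.00455). Its falls in DH6 and DH9 against 1n, by 2.13 (SE 0.57) and 2.31 (SE 0.59), were lost without DH6 III (0.0768) and without DH9 2 (0.111). As for PDF1.2, the sDH libraries were lowest, while the highest were those of 1n and not of DH14. Reads shared with other defensin genes are subject to the same doubt.

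The factor genes upstream of these had few counts. ERF1 had 0 and 2 counts in 1n, 13 and 21 in 2n, 1 and 0 in DH6, 3 and 2 in DH9, 21 and 16 in DH14, and 0 and 1 in sDH. Its level was 14.1 times higher in 2n than in 1n (95% interval of counting error 3.62 to 121) and 15.4 times higher in DH14 than in 1n (3.98 to 132). By edgeR these had adjusted p-values of 0.00874 and 0.0131, and they were not called without 1n 1 (0.0565 and 0.0660), without 2n 2 (0.0574) or without DH14 1 (0.0757). ORA59 had 0.424 and 0.758 CPM in 1n, 0.788 and 0.696 in 2n, 1.26 and 0.379 in DH6, 2.03 and 1.83 in DH9, 2.89 and 2.49 in DH14, and 0.327 and 0.176 in sDH. It rose against 1n in DH14 by 2.18 (SE 0.51, edgeR adjusted p = 0.0110) and in DH9 by 1.70 (SE 0.52, edgeR adjusted p = 0.0293). These calls of ORA59 were lost without 1n 1 (0.0550 and 0.131), without DH14 1 (0.0641), and without DH9 1 or DH9 2 (0.108 and 0.0916). EIL1, an ethylene-signal factor, fell by 0.85 in DH6 (SE 0.09, edgeR adjusted p = 3.64e-05) and by 0.54 in sDH (SE 0.09, edgeR adjusted p = 0.000551) against 1n, in 16 of 16 alternative fits.

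**Figure D4:**
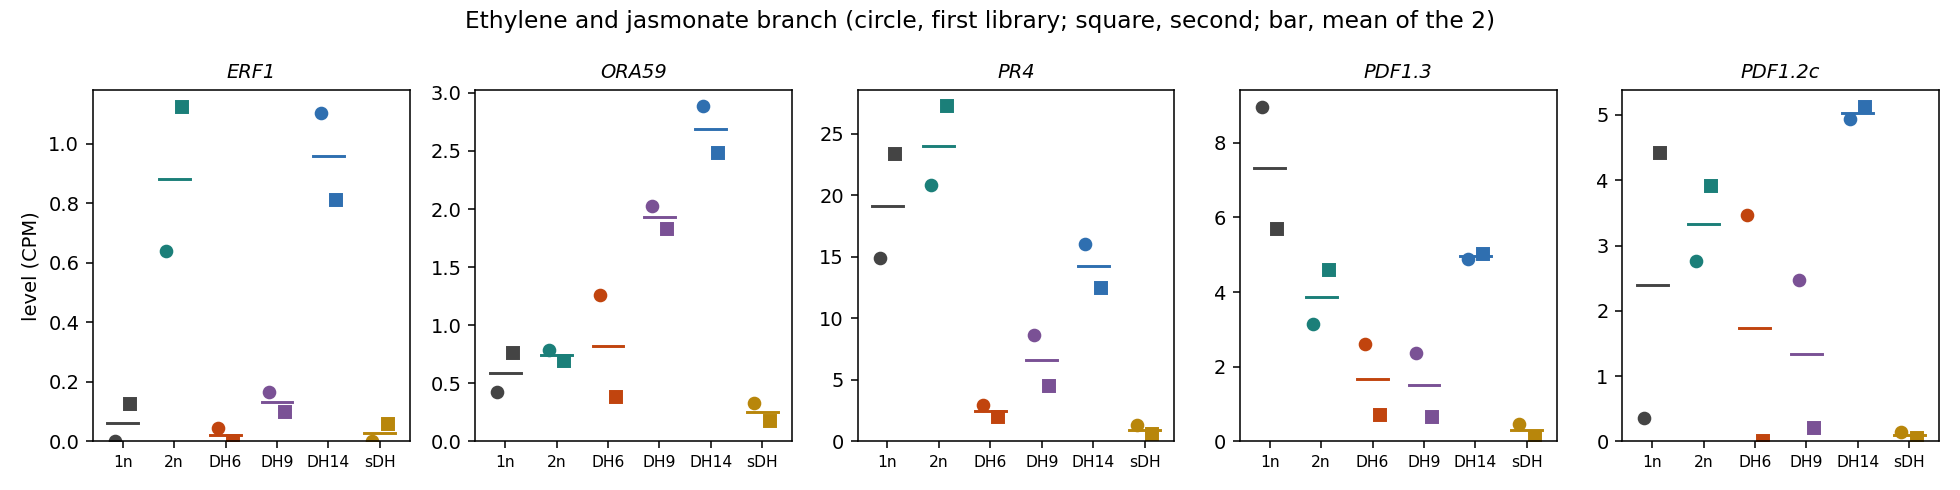
Levels in CPM, on linear axes that start at 0, of 5 genes of the branch shared with ethylene in the 12 libraries; circles mark the first library of a group, squares the second, and bars the mean of both. DH14 lies above DH6 and sDH in all 5 panels, and PR4 in sDH is at 1.31 and 0.585 CPM. Of the tested genes of this branch not shown, EIN3 and EIL1 also had DH14 above both groups. PDF1.2b and THI2.1 did not: DH6 II had 3.28 and 2.88 CPM, above both DH14 libraries.

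Genes of other responses also differed between these libraries. PR1, a marker of salicylic acid defence, had 166 and 466 CPM in 1n, 137 and 77.6 in 2n, at most 12.6 in the DH lines and 0 counts in both sDH libraries. ICS1 and PAD4, also of that defence, were above 28 CPM in every library of 1n and 2n and below 25 CPM in every other library. Like those of TAT3, these levels were higher in 1n and 2n than in every other library. In DH14, however, PR1 had 1.16 and 1.47 CPM, while TAT3 had 28.6 and 67.3, next to 68.3 in 2n 1. The part of these genes in the TAT3 result was not tested. TCH4, a touch-induced gene, had 50.7 and 158 CPM in 1n, 513 and 689 in 2n, 28.5 and 21.8 in DH6, 239 and 235 in DH9, 334 and 281 in DH14, and 130.0 and 249 in sDH. Inside DH6 and DH14 TCH4 differed 1.31-fold and 1.19-fold, where VSP2 differed 14.8-fold and 33.5-fold, while in 1n it was 3.11-fold higher in the library with more VSP2. TCH3, a touch-induced calmodulin-like gene, differed 1.19-fold in DH6, 1.11-fold in DH14 and 1.39-fold in 1n. ERF104, an ethylene response factor gene listed here with touch, had 66.9 and 43.6 CPM in DH14, lower in the library with more VSP2, and 279 and 256 CPM in 2n. The morning clock gene CCA1 had 178 and 71.2 CPM in 1n, 1.03 and 1.02 in 2n, 18.1 and 15.4 in DH6, 22.3 and 23.2 in DH9, 88.2 and 99.96 in DH14, and 88.5 and 57.6 in sDH. LHY, its partner, had 176 and 38.9 CPM in the 1n libraries. The part of clock phase and of touch response in the jasmonate results was not tested.

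Outside the 10 genes, those whose log2(CPM + 0.5) followed VSP2 most closely over the 12 libraries were AT4G39720 (r = 0.928), NATA1 (r = 0.923) and CYP82G1 (r = 0.906). NATA1, an ornithine acetyltransferase gene induced by jasmonate, reached 34.7 CPM in DH14 2, and CYP82G1, a cytochrome P450 gene, 2.94 CPM in the same library, and both were at 0 in some library. For JAZ10 the closest were MYB46 (r = 0.874), AT4G29700 (r = 0.862) and GCL1 (r = 0.848). For PDF1.2 they were YLS5 (r = 0.938), AT5G23850 (r = 0.936) and AT1G76520 (r = 0.928), none of which fell below 5.03 CPM. These correlations describe libraries that share groups, and the genes were picked from all tested genes for their likeness.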

How the data were processed

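The deposited values are raw read counts per gene in 5 tables. Per the submitters' processing notes, HISAT2, Subread and DESeq2 were used with TAIR10; tool versions, annotation, strand setting and multi-mapping rule were not given in the sources used here. Columns named WT were taken as 2n, the only group left. The sDH table repeats the first 1n column, so 1n came from the other tables. The 5 tables of transposable elements and 12 DNA methylation samples were not analysed here. Counts were fitted with edgeR 4.0.16 in R 4.3.3: filterByExpr (minimum count 10, total 15), TMM scaling (CPM use it), 1 quasi-likelihood model with a mean per group over 12 libraries, and Benjamini-Hochberg adjustment over all 19201 tested genes. DESeq2 1.42.0 was an alternative, as were other scaling, no filter, only the groups compared and each library left out. The fit was tested on simulated data. Named beside the 10 genes were up to 3 called genes per list with the smallest adjusted p against 1n. Also named were MYC2, COI1, ORA59 and ERF1, 8 genes of clock, salicylic acid and touch, and the 3 most alike for VSP2, JAZ10 and PDF1.2. JOX2, JR1, CYP94B3, JOX3, PDF1.2b, PDF1.2c, EIN3 and THI2.1 fall outside these rules. JOX2 and JR1, at least, were chosen after their values were seen. The genes, lists and tests were chosen with earlier results of these data known. Column numbers did not pair the libraries: differences between library 2 and library 1 correlated at -0.168 to 0.122 between groups.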

Additional observations from a re-analysis of the deposited data

How the results depend on the processing

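Of 1539 results for the 10 genes under alternative settings, 1367 kept their call and direction, 34 lost a call, 59 gained one, 78 changed sign without a call on either side and 1 changed sign with a call. Calls were kept in 112 of 146 alternatives. The exception with a call was JAZ1 in DH9 against 1n, whose log2 change of -0.31 ranged from -1.13 to 1.80 over the left-out libraries. The number of the 10 genes called moved by over 1.5 times, or from 0, as follows, and the cause was not tested. With size factors by median of ratios, DH6 against 1n had 2. Without the low-count filter, 2n, DH6, DH9 and sDH had 1, 3, 2 and 8 against 1n, DH6, DH9 and DH14 had 4, 1 and 1 against 2n, and the 3 lines differed in 4. With only the groups compared, DH6 and sDH had 0 and 3 against 1n, DH6, DH9, DH14 and sDH had 1, 1, 2 and 6 against 2n, and the 3 lines differed in 4. The 3 in sDH against 1n were TAT3, PDF1.2 and VSP1. DESeq2 gave 0 for DH6 against 1n. Smaller moves were 6 in sDH against 1n by DESeq2 and 3 in sDH against 2n without the filter. Of 1020 counts of called genes in the pathway lists, 715 stayed within 1.5 times. Leaving out each library in turn gave 0 to 1 in 2n, 0 to 3 in DH6, 0 to 2 in DH9, 0 to 1 in DH14 and 2 to 8 in sDH against 1n, 0 to 3 in DH6, 0 to 1 in DH9 and 2 to 3 in sDH against 2n, and 0 to 2 among the 3 lines.

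A replicate block was fitted in the 4 groups with numbered columns, whose numbers do not pair the libraries. With the block, DH9 had 2 genes called against 1n, and DH9 and DH14 had 1 each against 2n. Without the block in these groups alone, an alternative chosen after seeing the data, DH9 had 1 against 2n. With 2 libraries a group, differences as large as those inside 1n and DH6 cannot be told from differences between groups.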
